A study of Mus musculus with 6 samples.

Results

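The 10 genes described here belong to the interleukin 1 family and to the inflammasome that activates part of it. They are 4 agonist cytokine genes (Il1a, Il1b, Il1f9 and Il18), 2 inhibitor genes (Il1rn and Il18bp), the shared receptor subunit gene Il1rap, the sensor gene Nlrp3 and the caspase genes Casp1 and Casp4. They were taken by symbol from the 24391 gene rows of a deposited count table and the 23284 gene rows of a deposited FPKM table, and all 10 were found in both. The list was selected on the log2 differences between CCL5-/- and WT libraries, which were known when it was drawn up, so the values in that comparison are a description and no test is read from them.

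The RNA came from tumour-associated macrophages (TAMs), sorted from colorectal tumours of BALB/C mice. The mice either lacked Ccl5, the gene of the chemokine CCL5 (CCL5-/-), or were wild type (WT). The sort separated cells high in CD11b and low in F4/80 (F4/80low, 2 CCL5-/- and 2 WT libraries) from cells low in CD11b and high in F4/80 (F4/80hi, 1 library labelled CCL5-/- and 1 labelled WT). Ages, the number of mice per library and the way the tumours were raised are not given in the sources used here, so the spread between libraries may be technical.

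Interleukin 1 alpha and beta are made by activated myeloid cells and signal through the receptor IL1R1 together with the accessory subunit encoded by Il1rap. Interleukin 1 beta and interleukin 18 are made as inactive precursors, which caspase-1 cuts after a sensor such as NLRP3 has assembled an inflammasome; interleukin 1 alpha does not need that cut. Il1f9 encodes interleukin 36 gamma, which signals through a separate receptor that also uses the Il1rap product. The transcript level of a cytokine in this family therefore does not give the amount of active protein.

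The promoters of the 2 most abundant agonist genes and of Il1f9, the gene with the widest spread between libraries, are shown 5′ to 3′ on the strand of the gene. They are RefSeq sequences of GRCm38.p6, from 250 bases before to 50 bases after the annotated start. Capitals mark matches to TATAAA, the TATA box, or to a loose form of the NF-kB motif (GGG and CC with any 5 bases between them), both searched on both strands.
Il1a: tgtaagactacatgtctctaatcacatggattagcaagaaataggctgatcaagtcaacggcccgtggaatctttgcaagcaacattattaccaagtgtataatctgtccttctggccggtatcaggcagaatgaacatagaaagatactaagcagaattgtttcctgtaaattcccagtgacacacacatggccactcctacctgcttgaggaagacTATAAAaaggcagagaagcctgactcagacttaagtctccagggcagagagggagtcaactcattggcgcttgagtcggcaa
Il1b: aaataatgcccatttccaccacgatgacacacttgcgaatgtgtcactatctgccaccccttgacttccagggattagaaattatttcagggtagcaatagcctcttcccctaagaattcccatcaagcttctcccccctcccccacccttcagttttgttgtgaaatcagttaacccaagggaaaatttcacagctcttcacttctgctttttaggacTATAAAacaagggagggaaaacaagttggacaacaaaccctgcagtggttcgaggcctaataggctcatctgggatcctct
Il1f9: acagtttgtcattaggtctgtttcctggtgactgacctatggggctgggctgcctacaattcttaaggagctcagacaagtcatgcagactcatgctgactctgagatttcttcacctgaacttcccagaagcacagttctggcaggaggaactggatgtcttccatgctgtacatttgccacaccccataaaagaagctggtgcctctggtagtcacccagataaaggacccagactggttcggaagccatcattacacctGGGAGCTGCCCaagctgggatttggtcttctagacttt
The windows are chr2:129309923-129310222 on the minus strand for Il1a, chr2:129371090-129371389 on the minus strand for Il1b, and chr2:24186226-24186525 on the plus strand for Il1f9. Il1a and Il1b both held TATAAA, starting at position -32 and -31 relative to the start. The Il1f9 window held no TATAAA and held the loose NF-kB motif in overlapping matches at positions 12 and 13. Of 32851 promoters of the same length, 13.6% held TATAAA and 50.8% held the loose NF-kB motif. A match is a description of these letters and not a measured binding site. RefSeq promoters were found for all 10 genes.

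Several of the genes lie side by side. On chromosome 2 (GRCm38, GENCODE M21), Il1a (129299610 to 129309972) and Il1b (129364570 to 129371139) lie 54.6 kb apart. Elsewhere on the same chromosome, Il1f9 (24186476 to 24193568) and Il1rn (24336853 to 24351494) lie 143 kb apart. Casp1 (5298517 to 5307265) and Casp4 (5308828 to 5336783) are neighbours on chromosome 9, 1562 bases apart. Il18 is also on chromosome 9 (50554827 to 50581840), Il18bp on chromosome 7 (102014885 to 102018690), Il1rap on chromosome 16 (26581704 to 26730117) and Nlrp3 on chromosome 11 (59541568 to 59566956). Whether the counting used strand is not stated. Reads of Il1b therefore cannot be told apart from those of its antisense partner Il1bos, nor those of Il1a, Il1rap, Il18 and Il18bp from those of Gm14023, Gm20319, Bco2 with Tex12, and Numa1, where these overlap.

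Total counts of the F4/80low libraries were 10494542 and 19073767 in CCL5-/- replicates 1 and 2, and 9280635 and 22411342 in WT replicates 1 and 2. The ribosomal RNA precursor Rn45s took 50.03% and 58.4% of counts in replicate 1 of CCL5-/- and WT, and 1.38% and 0.844% in replicate 2. The leading principal component, with 76.0% of the variance, separated the replicate numbers, which the labels do not explain. Itgam, which encodes CD11b, was also split by number, with 580 and 144 CPM in CCL5-/- replicates 1 and 2 and 598 and 180 CPM in WT replicates 1 and 2. Adgre1, which encodes F4/80, overlapped between the numbers and did not pass, with 53.7 and 35.3 CPM in CCL5-/- and 35.6 and 51.8 CPM in WT (replicate 2 over 1, log2 difference -0.04, SE 0.27, edgeR adjusted p = 0.92). Values are therefore also given within same-numbered pairs. The targeted gene Ccl5 stood at 4.07 and 3.01 CPM in CCL5-/- and at 43.8 and 131 CPM in WT F4/80low libraries (log2 difference -4.64, SE 0.69). In the F4/80hi table it went against the labels, since the library labelled CCL5-/- had 145 FPKM and that labelled WT had 15.7 FPKM, and the sample titles also name the other genotype. The F4/80hi values further matched the replicate 1 pair. Over 6677 genes with 20 to 400 reads in that pair, their ratio predicted the split of reads between WT replicate 1 and CCL5-/- replicate 1 with a median chi-square of 0.334, where independent reads give 0.455. The other 11 ordered pairs gave medians from 3.58 to 8.94. The F4/80hi libraries and the replicate 1 pair thus differed by less than sampling noise. They are counted as the same libraries, and 4 libraries in all are counted. The gate of replicate 1 is not settled.

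Macrophage markers were present in every F4/80low library, with all 12 listed genes tested and a summed level of 2601 and 2343 CPM in CCL5-/- and 2469 and 3279 CPM in WT replicates 1 and 2. Apoe, C1qa and Itgam were the most abundant of them. Markers of neutrophils, cells that also transcribe several of the genes described here, were present in every library too. Their summed level was 934 and 401 CPM in CCL5-/- and 4397 and 699 CPM in WT replicates 1 and 2, led by S100a9, S100a8 and Hdc. None of the 26 neutrophil markers in the table was at 0 in all libraries. In bulk RNA, fewer cells of a type and less RNA per cell cannot be told apart.

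Il1b was the most abundant of the 10 genes in every library. Scaled to library size and exon length (CPM per kb, over all annotated exons), its level was 1111 and 969 in CCL5-/- and 1165 and 1714 in WT replicates 1 and 2. Il1a followed in every library with a level of 300 and 149 CPM per kb in CCL5-/- and 253 and 320 in WT, and the ranges of these genes did not overlap. Nlrp3 (36.8 to 125 CPM per kb over the 4 libraries), Il1rn (48.7 to 100.4), Casp1 (16.5 to 57.3), Il1f9 (3.65 to 56.5) and Casp4 (11.9 to 33.6) came next, and each overlapped its neighbour in this order. Il18 lay apart from Casp4 and below it, at 5.81 to 9.44 CPM per kb. Il18bp (1.93 to 4.70) and Il1rap (0.831 to 3.45) had the lowest mean levels per length and overlapped each other. The place of Il1rap depends on the length used, here 11.36 kb of annotated exons. The authors' FPKM put Il1rap above Il18bp under both labels. They also put Casp4 above Casp1 and Il1rn above Nlrp3 under both labels, the reverse of the order per kb in replicate 1. In the authors' FPKM, Il1b stood at 2471 in the library labelled CCL5-/- and 2232 in the library labelled WT, rank 54 of all gene rows in both.

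**Figure D1:**
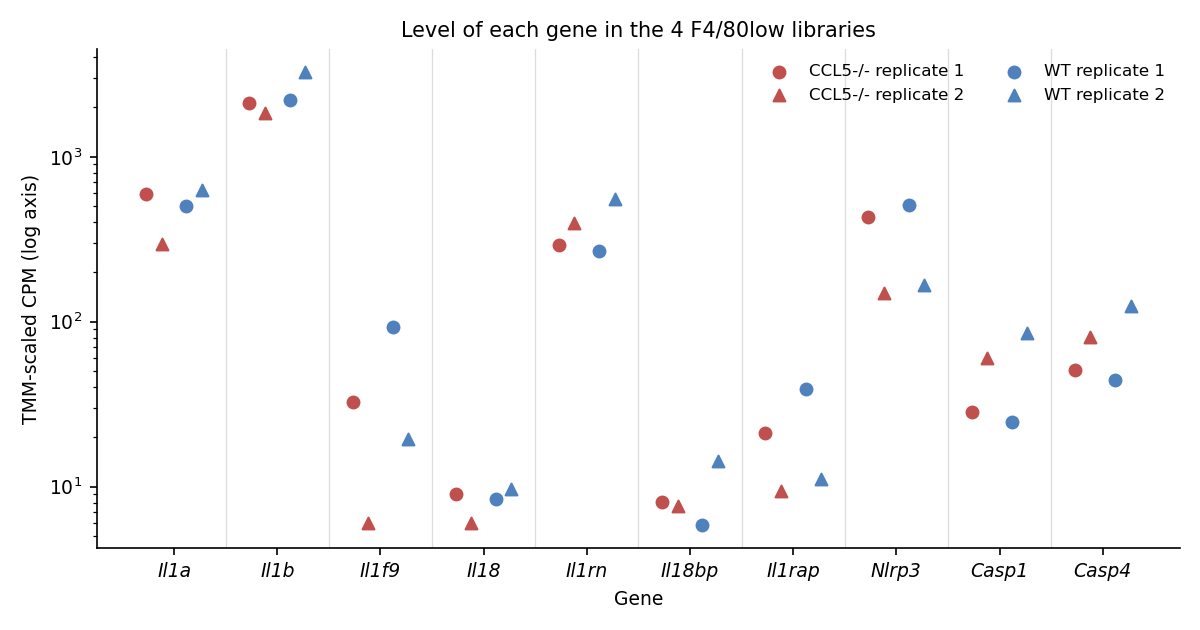
TMM-scaled CPM (log axis) of the 10 genes in the 4 F4/80low libraries, with CCL5-/- in red left of WT in blue, circles for replicate 1 and triangles for replicate 2. Il1b lies between 1848 and 3269 CPM and is the highest in every library, while Il1f9 runs from 6.02 to 93.1 CPM.

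The comparison of genotypes asked how loss of CCL5 alters expression in the TAM libraries labelled F4/80low. Among the agonists, Il1b was the only one of the 10 genes whose genotypes did not overlap. It had 18223 and 50315 reads in CCL5-/- replicates 1 and 2 and 12935 and 99437 reads in WT replicates 1 and 2, which is 2118 and 1848 CPM in CCL5-/- against 2222 and 3269 CPM in WT. Most of that gap lay in WT replicate 2. Over all 12710 genes tested, 8.24% had CCL5-/- below WT without overlap, and 8.36% had CCL5-/- above WT. The log2 difference of Il1b was -0.47 (SE 0.56), and by number it was -0.07 between the replicate 1 libraries and -0.82 between those of replicate 2.

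Il1a, the agonist that acts without caspase-1, had 593 and 294 CPM in CCL5-/- and 500 and 632 CPM in WT replicates 1 and 2. The genotypes overlapped, and the pairs had opposite signs, at 0.24 and -1.10 on the log2 scale. Il18 was low, with 78 and 163 reads in CCL5-/- and 49 and 296 reads in WT. Its level was 9.07 and 5.99 CPM in CCL5-/- and 8.42 and 9.73 CPM in WT, and the pairs again differed in sign (0.11 and -0.69).

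Il1f9 had the largest difference of the 10 genes between genotypes within pairs. It had 282 and 164 reads in CCL5-/- replicates 1 and 2 and 542 and 591 reads in WT replicates 1 and 2. That is 32.8 and 6.02 CPM in CCL5-/- against 93.1 and 19.4 CPM in WT. Within each number CCL5-/- was lower, by about the same factor (-1.50 and -1.67 on the log2 scale), but the genotypes overlapped, because CCL5-/- replicate 1 was above WT replicate 2. The log2 difference was -1.54 (SE 1.04) without and -1.60 (SE 0.22) with a term for the replicate number, which takes up the split between numbers. Without WT replicate 1 it was -0.01 and without CCL5-/- replicate 1 it was -3.16, fits in which the numbers are unbalanced between genotypes. Neutrophil markers moved with it, with 20 of 22 tested markers lower in CCL5-/- in both pairs, as 26.5% of all genes were. Their medians were -2.63 and -0.89, against 0.01 and -0.02 over all genes tested. Dendritic cell markers (5 of 7 lower and 1 higher in both pairs) and endothelial markers (3 of 4 lower and 0 higher) were also mostly lower. Whether any of these lists has a part in the Il1f9 difference was not tested.

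The inhibitor genes had pair differences of the same signs as Il1a and Il18. Il1rn encodes the receptor antagonist that competes with interleukin 1 alpha and beta, and had 293 and 398 CPM in CCL5-/- against 270 and 556 CPM in WT replicates 1 and 2. The genotypes overlapped, with 0.12 and -0.48 in the pairs. Il18bp, whose product binds and neutralises interleukin 18, had 69 and 209 reads in CCL5-/- and 34 and 433 reads in WT. Its level was 8.02 and 7.68 CPM in CCL5-/- and 5.84 and 14.2 CPM in WT, with pair differences of 0.45 and -0.88, so WT was both the highest and the lowest.

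The ratio of agonist to antagonist needs no library size. Reads of Il1b per read of Il1rn were 7.24 and 4.64 in CCL5-/- and 8.24 and 5.88 in WT replicates 1 and 2. The mean ratio was 5.94 ± 1.84 in CCL5-/- and 7.06 ± 1.67 in WT (SD, n = 2 each), and the genotypes overlapped. Within each number CCL5-/- was the lower. The ratio differed more between the numbers than between the genotypes, and replicate 1 was the higher in both. The ratio was not tested.

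The receptor subunit gene Il1rap had 21.04 and 9.44 CPM in CCL5-/- and 39.2 and 11.1 CPM in WT replicates 1 and 2. CCL5-/- was lower in both pairs (-0.89 and -0.23), and the genotypes overlapped. The log2 difference was -0.72 (SE 0.73). It was 0.46 without WT replicate 1 and -0.24 without CCL5-/- replicate 2. Without CCL5-/- replicate 1 it was -1.35, and without WT replicate 2 it was -1.37. In each of these fits the numbers are unbalanced between genotypes.

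Nlrp3, the inflammasome sensor gene, stood at 431 and 149 CPM in CCL5-/- and 508 and 166 CPM in WT replicates 1 and 2. Its genotypes were close within each number (-0.24 and -0.15) and far apart between numbers. Casp1, which encodes the protease that cuts the interleukin 1 beta precursor, had 28.4 and 60.1 CPM in CCL5-/- and 24.7 and 85.7 CPM in WT. Casp4, which in the mouse encodes the caspase (also called caspase-11) that senses bacterial lipopolysaccharide inside the cell, had 51.0 and 80.9 CPM in CCL5-/- and 44.3 and 125 CPM in WT. Both neighbours showed the same pattern, slightly higher in CCL5-/- in the replicate 1 pair (0.20 and 0.20) and lower in the replicate 2 pair (-0.51 for Casp1 and -0.62 for Casp4).

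**Figure D2:**
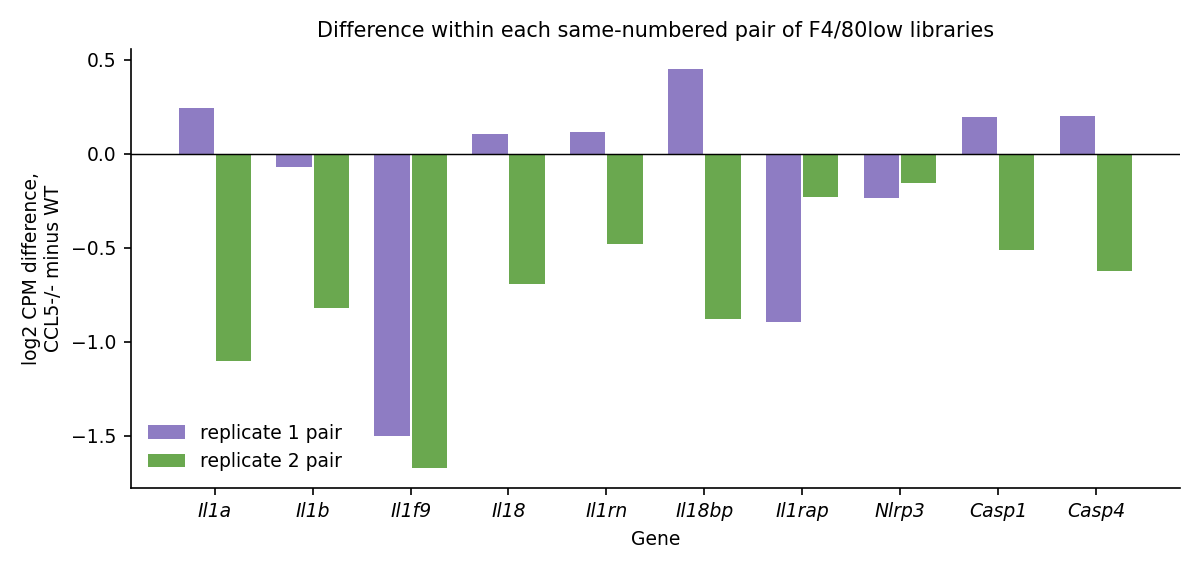
The log2 CPM difference, CCL5-/- minus WT, of each gene within the replicate 1 pair (violet) and the replicate 2 pair (green) of F4/80low libraries. All 10 genes are below 0 in the replicate 2 pair and 4 are below 0 in the replicate 1 pair, with Il1f9 at -1.50 and -1.67.

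As counts, 10 of 10 genes were lower in CCL5-/- in the replicate 2 pair, where 52.3% of all genes tested were lower, and 4 of 10 were lower in the replicate 1 pair, where 49.3% were. Il1b, Il1f9, Il1rap and Nlrp3 were lower in both pairs (26.5% of all genes) and 0 of 10 were higher in both (24.8%). The median log2 difference of the 10 was 0.11 between the replicate 1 libraries and -0.66 between those of replicate 2, against 0.01 and -0.02 over all genes. Summed macrophage markers were also lower in CCL5-/- in the replicate 2 pair (2343 CPM in CCL5-/- and 3279 CPM in WT), with 10 of 12 lower there and 4 of 12 lower in the replicate 1 pair. T and NK cell markers, at 162 and 157 CPM in CCL5-/- and 94.5 and 365 CPM in WT replicates 1 and 2, were lower for 9 of 9 genes in the replicate 2 pair and for 1 of 9 in the replicate 1 pair. The part of either list in these counts was not tested. In edgeR 0 of 10 genes passed an adjusted p of 0.05 between genotypes, as did 0% of all genes tested. There 41 genes had an unadjusted p under 0.05, and DESeq2 called 1 gene, Ccl5. In edgeR the targeted gene Ccl5 itself missed the threshold, without (adjusted p = 0.99997) and with the term for the replicate number (adjusted p = 0.099). Missing it, with 2 libraries per genotype, therefore does not show that a gene is unchanged. With the term for the replicate number 1 of 10, Il1f9, fell past the threshold, against 0.0787% of all genes. The list was drawn up with this comparison in view, and nothing is read from that count. The authors' deposited table gives a negative log2 fold change for all 10 genes, between -0.43 (Il1f9) and -0.08 (Nlrp3), with an adjusted p of 0.9999 for each. How those fold changes were scaled is not given, and their sizes are not compared.

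The libraries were also compared by replicate number. With the genotype in the fit, 6 of 10 genes differed between replicate 2 and replicate 1 at an edgeR adjusted p under 0.05, where 31.8% of all genes tested did. Of these, 3 were higher in replicate 2 (13.9% of all genes were) and 3 were lower (18.0%). Il1f9 was lower in replicate 2 (12.7 CPM on average in replicate 2 and 62.9 in replicate 1, log2 difference -2.35, SE 0.23, edgeR adjusted p = 5.1e-06). Nlrp3 (-1.57, SE 0.24, adjusted p = 0.00024) and Il1rap (-1.49, SE 0.24, adjusted p = 0.00039) were lower as well in edgeR. The caspase genes were higher in replicate 2, with Casp1 at 1.43 (SE 0.24, adjusted p = 0.00046) and Casp4 at 1.07 (SE 0.25, adjusted p = 0.0043) in edgeR. Il1rn was higher by less (0.74, SE 0.26, edgeR adjusted p = 0.037). Il1b (0.18, SE 0.30) and Il1a (-0.34, SE 0.32) did not pass, nor did Il18 (-0.20, SE 0.31) and Il18bp (0.58, SE 0.34). The sensor and caspase-1 transcripts thus moved in opposite directions between the numbers, in both genotypes.

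**Figure D3:**
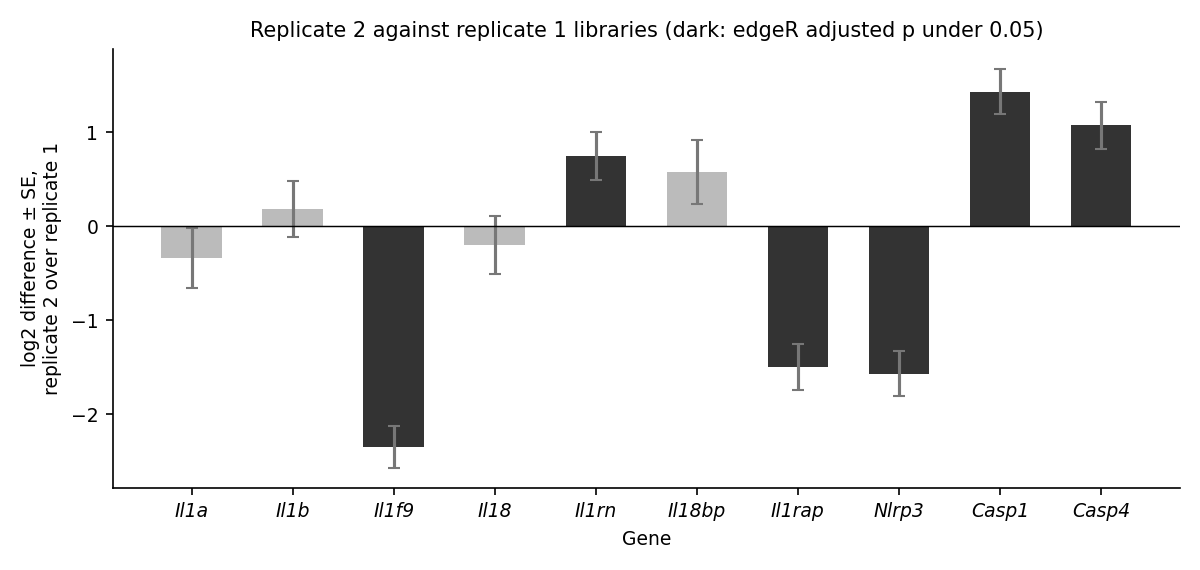
The log2 difference ± SE of each gene, replicate 2 over replicate 1, with the genotype in the edgeR fit (2 libraries per number). Dark bars are past an adjusted p of 0.05; Il1f9, Il1rap and Nlrp3 lie at -2.35, -1.49 and -1.57, and Casp1 and Casp4 at 1.43 and 1.07.

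Neutrophil markers moved with this split, with 15 of 22 tested markers lower and 0 higher in replicate 2. Of all genes tested, 18.0% were lower by the same threshold and 13.9% higher. Of 8 monocyte markers 4 were lower and 1 was higher, and of 12 macrophage markers 3 were lower and 3 higher. The ribosomal RNA share and Itgam moved with it too, and the part of each was not tested. Since the gate of replicate 1 is not settled, the numbers may also differ in gate, which cannot be told apart from these. Without WT replicate 1, in a fit with no genotype term, fewer of the 10 genes and fewer of all genes tested passed than with all 4 libraries. The log2 differences in that fit were 1.38 for Casp1, -1.01 for Il1rap, -1.43 for Nlrp3 and -1.35 for Il1f9. Il1f9 missed the threshold there, and without the genotype term in all 4 libraries (-2.29). It also missed it, in such fits, without CCL5-/- replicate 2 (-1.68) and without WT replicate 2 (-3.37). Il1rn missed it without CCL5-/- replicate 1 (0.86) and without WT replicate 2 (0.50).

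Over the 4 F4/80low libraries, Il1f9 had the widest range of the 10 genes (3.93 on the log2 CPM scale), followed by Il1rap (2.04) and Casp1 (1.79). Of 8441 genes with a mean log2 CPM of at least 3, those with the nearest centred profile (Euclidean distance) to Il1f9 were Cd24a (0.50), 5830416P10Rik (0.54) and Csf3r (0.64). Csf3r, the receptor gene for granulocyte colony-stimulating factor and one of the listed neutrophil markers, had 75.9 and 17.3 CPM in CCL5-/- and 236 and 30.6 CPM in WT replicates 1 and 2. The genes nearest to Il1rap were Nfam1 (0.079), Hopx (0.16) and Il13ra1 (0.21), and those nearest to Casp1 were Atp5l (0.034), Rps24 (0.085) and Gm11127 (0.10). With 4 libraries such a profile has few values, and nearness describes these libraries only.

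Other genes of the pathway were taken from a list of 41 found in the count table, of which 34 had enough reads to be tested. In edgeR 0 of 34 passed between genotypes (adjusted p), without or with the term for the replicate number, and 0 of 34 had an unadjusted p under 0.05 without the term. With the term 6 of 34 had an unadjusted p under 0.05 and a lower level in CCL5-/- (4.01% of all genes did) and 0 a higher one (1.85%). The median log2 difference of the 34 was -0.26 against -0.01 over all genes, and 17 of 34 were lower and 3 of 34 higher in CCL5-/- in both pairs, where 26.5% of all genes were lower and 24.8% higher. That median was -0.00080 without WT replicate 1. Il1r1, Il18r1, Myd88, Pycard and Naip6 (-0.50, SE 0.66) had CCL5-/- below WT without overlap, as 8.24% of all genes did. Nek7 (0.24, SE 0.35) had CCL5-/- above WT without overlap, as 8.36% of all genes did. Every listed gene without overlap is named here.

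Among the receptors, Il1r2 encodes the decoy that binds interleukin 1 without signalling. It had 135 and 31.9 CPM in CCL5-/- and 324 and 51.6 CPM in WT replicates 1 and 2, with -1.26 and -0.69 in the pairs. It did not pass (log2 difference -1.17, SE 1.05; with the term -0.98, SE 0.24, edgeR adjusted p = 0.19). Il18r1, the ligand-binding subunit gene of the interleukin 18 receptor, had 3.02 and 2.50 CPM in CCL5-/- and 4.982 and 4.997 CPM in WT, on 26 to 152 reads. Its genotypes did not overlap, and it did not pass (-0.86, SE 0.46). Il1r1, the signalling receptor gene, stood at 26.97 and 27.6 CPM in CCL5-/- and 30.2 and 34.5 CPM in WT (-0.25, SE 0.34), without overlap and without passing.

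Of the other ligands, Il33 was sparse, with 2 and 58 reads in CCL5-/- and 2 and 104 reads in WT replicates 1 and 2. Il1f6, which encodes interleukin 36 alpha, had 6 and 18 reads in CCL5-/- and 4 and 37 reads in WT. Il1f5, Il1f8 and Il1f10, family members beside Il1f9, and Il1rapl1 had 0 reads in all 4 libraries, which allows up to 3 reads per library and covers counting error only. Of the interleukin 36 genes, Il1f9 thus had the most reads in every library.

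The 7 genes of adaptors and kinases had a median log2 difference of -0.30, and 0 passed in edgeR. Myd88, the adaptor gene of the receptors, had 29.1 and 32.7 CPM in CCL5-/- and 38.3 and 38.4 CPM in WT (-0.31, SE 0.34) and did not overlap between genotypes. Traf6 (-0.30, SE 0.49) and the kinase gene Irak2 (-0.40, SE 0.70) overlapped.

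Among inflammasome genes, Pycard, which encodes the adaptor ASC that links sensors to caspase-1, had 27.8 and 15.0 CPM in CCL5-/- and 29.9 and 31.0 CPM in WT replicates 1 and 2. Its genotypes did not overlap, and it did not pass (-0.51, SE 0.43). The sensor gene Nlrc4 had 4.77 and 2.06 CPM in CCL5-/- and 8.93 and 3.62 CPM in WT (-0.88, SE 0.69). Nlrp12 rested on few reads, with 10 and 4 in CCL5-/- and 29 and 11 in WT (-2.09, SE 1.56). Of the genes downstream, Gsdmd, which encodes the pore-forming protein cut by caspases 1 and 11, had 31.5 and 35.8 CPM in CCL5-/- and 33.3 and 46.3 CPM in WT (-0.24, SE 0.37). Ninj1 (-0.32, SE 0.41) and the channel gene Panx1 (-0.46, SE 0.48) did not pass either. Nlrp1a, Naip1 and Nlrp6 had 0 to 13 reads per library and were not tested.

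**Figure D4:**
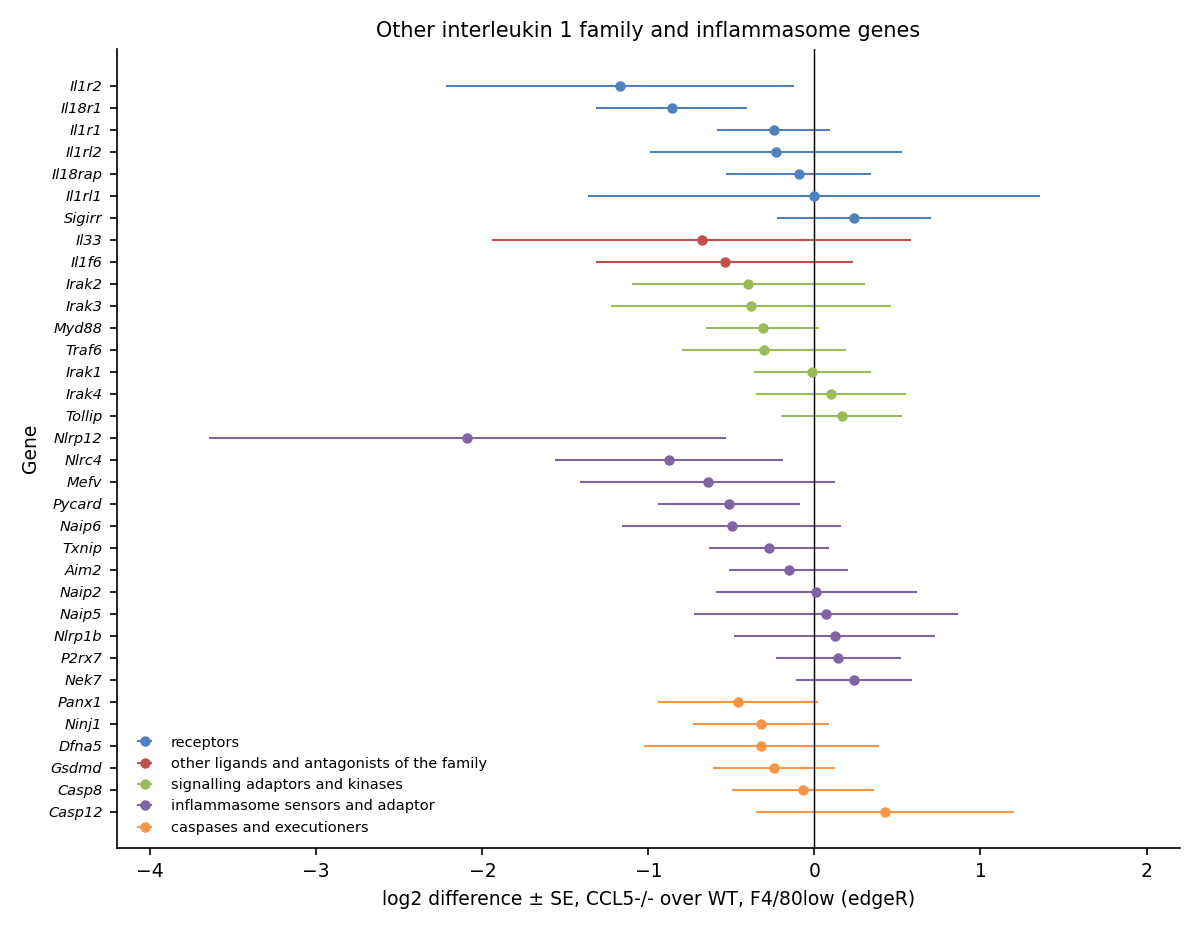
The log2 difference ± SE of 34 other pathway genes, CCL5-/- over WT in F4/80low libraries (edgeR, 2 libraries per genotype), coloured by role. No gene passed the adjusted threshold; Nlrp12 (-2.09) and Il1r2 (-1.17) lie lowest and have wide errors.

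Between replicate numbers 14 of the 34 passed in edgeR, 3 higher and 11 lower in replicate 2, against 31.8% of all genes tested, 13.9% higher and 18.0% lower. The genes named next were chosen after their values were seen. Il1rl1, which encodes the interleukin 33 receptor ST2, had 639 and 670 CPM in replicate 2 of CCL5-/- and WT against 82.8 and 52.6 CPM in replicate 1 (log2 difference 3.31, SE 0.28, edgeR adjusted p = 2.2e-06). Its ligand gene Il33 was also higher in replicate 2 (3.22, SE 0.73, edgeR adjusted p = 0.0039), on the reads given above. Il1r2 was lower in replicate 2 (-2.37, SE 0.24, edgeR adjusted p = 9.2e-06), as were the pyrin gene Mefv (-1.62, SE 0.23, adjusted p = 0.00014), Irak3 (-1.84, SE 0.24, adjusted p = 6.5e-05) and Naip5 (-1.66, SE 0.29, adjusted p = 0.0007). The inflammatory caspase gene Casp12 was higher (1.57, SE 0.29, edgeR adjusted p = 0.0011), as its neighbours in the family Casp1 and Casp4 were. In fits with no genotype term, fewer of the 34 and of all genes passed without CCL5-/- replicate 2 or without WT replicate 1. Il1rl1, Il33, Mefv, Irak3 and Naip5 passed with any 1 library left out, Casp12 missed the threshold without CCL5-/- replicate 2, and Il1r2 missed it without replicate 2 of either genotype.

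The second table gave FPKM of the F4/80hi libraries, which are counted as the replicate 1 libraries under exchanged genotype labels and have no replicate. Of 11670 genes with an FPKM of at least 1 in either library, 2.35% were higher by 2-fold or more in the library labelled CCL5-/-, and 1.58% were lower by as much. Of the 10 genes, Il1f9 was past 2-fold, with 114 FPKM under the label CCL5-/- and 40.6 FPKM under the label WT. That is a log2 difference of 1.47 on the log2(FPKM + 1) scale, against -1.50 in the F4/80low replicate 1 pair. Il1rap had 19.3 FPKM under the label CCL5-/- and 10.4 FPKM under the label WT (0.83, against -0.89). Nlrp3 had 170 FPKM under the label CCL5-/- and 129 FPKM under the label WT (0.40, against -0.24). In all, 8 of 10 genes had the opposite sign in the tables. The exceptions Il18 and Casp4 had differences of 0.07 and 0.12 on the log2(FPKM + 1) scale. These values repeat the replicate 1 pair with the labels turned round and are not a measurement in a separate population.

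**Figure D5:**
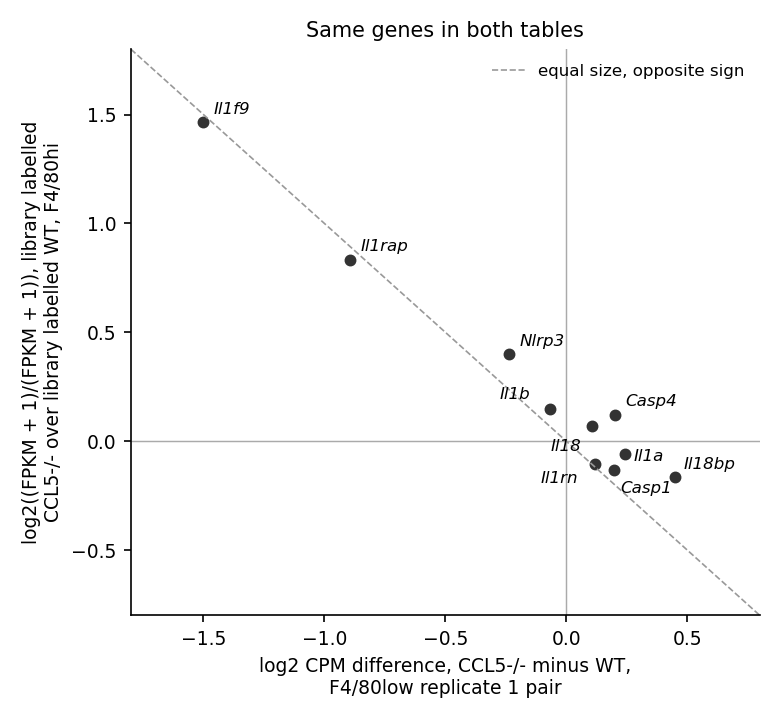
Each of the 10 genes, with its log2 CPM difference (CCL5-/- minus WT) in the F4/80low replicate 1 pair across and its log2((FPKM + 1)/(FPKM + 1)) difference, library labelled CCL5-/- over library labelled WT, in the F4/80hi table upward. The dashed line marks equal size and opposite sign; Il1f9 lies near it at -1.50 and 1.47, while Il18 and Casp4 have the same sign on both axes.

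In the library labelled CCL5-/-, the authors' FPKM put Il1b (2471) first among the 10 genes, then Il1a (637), Il1rn (181), Nlrp3 (170), Il1f9 (114), Casp4 (41.4), Casp1 (30.3), Il1rap (19.3), Il18 (13.4) and Il18bp (5.90). In the library labelled WT, Il18 (12.7) was above Il1rap (10.4), and Casp1 (33.3), Casp4 (38.0) and Il1f9 (40.6) lay close together. The deposited bounds were wide, from 7.55 to 4935 FPKM for Il1b in the library labelled CCL5-/- and from 0 to 4479 in the library labelled WT.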

How the data were processed

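RNA of sorted mouse TAMs was sequenced in 6 deposited libraries (Trizol extraction and the TruSeq RNA LT V2 kit, per the labels' protocols). The count table deposited by the authors holds whole read counts, and the FPKM table deposited by the authors holds FPKM with lower and upper bounds. The authors' deposited comparison table gives log2 fold changes with their SE, a score (the test statistic) and p-values, and its 4 per-sample columns were not used. STAR, HTSeq, DESeq2, TopHat2 2.1.1 and Cufflinks 2.2.1 are named in the submitters' processing notes, without saying which of them made which table. Loci overlapped GENCODE M21 (GRCm38) for 99.0% of 20919 shared symbols.

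Counts were tested by robust two-sided quasi-likelihood in edgeR 4.0.16 (R 4.3.3), after filterByExpr and TMM scaling, with Benjamini-Hochberg adjustment over 12710 genes. The SE is the log2 difference divided by the square root of F. CPM are TMM-scaled, and pair differences are of log2 CPM with a prior count of 2. DESeq2 1.42.0, limma-voom (limma 3.58.1), other factors and filters, each library left out, and the replicate number as a term were alternatives. FPKM differences used a pseudocount of 1. Depth of the FPKM libraries is unknown. Depth limits Il18, Il18bp and other genes with few reads.

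Same-numbered libraries deviated together (r = 0.73 over genes), which with 2 per genotype holds for both numbers by construction and does not show a pairing. The term is used because ribosomal RNA splits the libraries by number. The members and lists were chosen with earlier results of these data known. Named were all members and Ccl5, up to 3 other pathway genes per role by smallest p, the 3 most abundant markers of a list, and the 3 nearest profiles to the 3 widest-ranging members. The contrast between replicate numbers was added after seeing the data.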

Additional observations from a re-analysis of the deposited data

Results flagged for a closer look

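Il1b, Il1f9, Il1rap and Nlrp3 had one sign in both F4/80low pairs and the opposite sign in the F4/80hi table, and the difference was not tested. The F4/80hi log2 differences, library labelled CCL5-/- over library labelled WT, were 0.15 for Il1b, 1.47 for Il1f9, 0.83 for Il1rap and 0.40 for Nlrp3. The F4/80low pairs gave -0.07 and -0.82 for Il1b, -1.50 and -1.67 for Il1f9, -0.89 and -0.23 for Il1rap, and -0.24 and -0.15 for Nlrp3. The F4/80hi libraries are counted as the replicate 1 libraries with the genotype labels exchanged, so a sign opposite to the replicate 1 pair follows from the labels and is no difference between cell populations.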

How the results depend on the processing

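The count of genes past the threshold between genotypes was 0 in edgeR and 1 in DESeq2. The replicate block gave 10 with edgeR, 23 with DESeq2 and, with limma-voom, 47. The block moved the members called to 1 in each of these tools, Il1f9 every time, and called 0 other pathway genes. Leaving out 1 library gave 0 to 4 genes and 0 members. It moved the median log2 difference of the other pathway genes from -0.46 to -0.00080, and that of neutrophil markers from -3.33 to -0.029, the last without WT replicate 1. The cause was not tested. The member median kept its sign in these fits, from -0.59 to -0.17, but it was 0.11 within the replicate 1 pair and -0.66 within the replicate 2 pair. With 1 library left out, single members did not all keep their sign between genotypes. Casp1 (-0.97 to 0.84), Nlrp3 (-1.12 to 0.81), Casp4 (-0.90 to 0.57) and Il1rap (-1.37 to 0.46) changed sign. So did Il18bp (-0.84 to 0.42), Il1rn (-0.67 to 0.36) and Il1a (-0.90 to 0.06). Il1b, Il1f9 and Il18 stayed negative. These fits leave the numbers unbalanced between genotypes. Between replicate numbers, leaving out 1 library gave 3 to 6 members, 8 to 14 other pathway genes and 2004 to 3194 genes in all, where DESeq2 with all libraries gave 2661. The differences of Il1a (-0.89 to 0.21), Il1b (-0.23 to 0.59) and Il18 (-0.55 to 0.15) changed sign there, and none of them passed with all 4 libraries. Il1a passed without WT replicate 2 (-0.89), and Il18bp without CCL5-/- replicate 2 (1.03). In the F4/80hi table, 458 genes were past 2-fold, 854 with a pseudocount of 0.1 and 181 with an FPKM of at least 10, and Il1f9 was past it under each.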
